A study of Solanum lycopersicum with 3 samples.

Results

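Genes of the wound and jasmonate response were followed in ripe tomato fruit of a Lycb-1 transgenic line and of its wild type (WT). They were taken by words in the gene descriptions of the array (lipoxygenase, allene oxide, hydroperoxide lyase, oxophytodieno, jasmon, proteinase, protease or trypsin inhibitor, cystatin, wound, polyphenol oxidase, threonine deaminase and systemin), leaving out descriptions with P450, and include the probe SGN-U213363 for the inhibitor TR8. This gave 104 of the 11863 probes of the TOM2 long oligo array, on 114 spots and with 69 different database entries behind their descriptions. The word hydroperoxide lyase found 0 probes. Of the 104 probes, 44 were bright enough on every array to be tested.

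The Lycb-1 plants carry a citrus lycopene β-cyclase, the enzyme that makes β-carotene from lycopene, driven in all tissues by the CaMV promoter, together with the kanamycin resistance gene nptII, in the cultivar Zhongshu No. 5; the WT is the untransformed cultivar. All array plants of the Lycb-1 group descend from 1 transformant, so an effect of the transgene and an effect particular to that line cannot be told apart. Ripe fruits were halved and deseeded before they were frozen, and each pool mixed several fruits from several glasshouse plants. On each of 3 arrays, 1 Lycb-1 pool labelled with Cy5 met 1 WT pool labelled with Cy3, so there were 3 pools of each genotype, grown and harvested independently. The dyes were never exchanged, so an effect of the genotype and a bias of 1 gene towards 1 dye cannot be told apart either.

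When a plant is wounded, lipoxygenase, allene oxide synthase, allene oxide cyclase and oxophytodienoate reductase turn a fatty acid of the chloroplast into jasmonic acid, which a conjugating enzyme joins to isoleucine to give the active hormone. The hormone removes the JAZ repressors, and transcription of defence genes follows. In tomato the peptide systemin, cut from prosystemin, spreads the signal, and the proteinase inhibitors I and II, which block the digestive enzymes of insects, are its best known targets.

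Values below are of 2 kinds. The intensity of a spot is the brightness that the authors deposited, after subtraction of the background and before any scaling between dyes or arrays. Statements that the pools of the genotypes overlapped or lay apart compare these unscaled values across arrays. No share over all probes stands beside such statements, so they only describe the probe and are not evidence of a difference. The log2 ratio is log2 of Lycb-1 over WT within an array after print-tip loess, a scaling within each block of spots, so that 1 is a doubling and values below 0 are lower in Lycb-1. The mean of the 3 arrays was tested against 0 with a two-sided limma fit, and p-values were adjusted by Benjamini-Hochberg over all 5720 probes that had at least 400 in the brighter channel on all 3 arrays. Each standard error (SE) is that of this mean, n = 3 arrays, a number that sets the precision of every value here.

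The arrays showed the construct and the tissue as labelled. The nptII probe X57709 read 3824.5 to 8289 in the Lycb-1 pools and 38.3 to 81.7 in the WT pools. Over all 5720 tested probes, 20.2% were higher and 21.3% lower in Lycb-1 on all 3 arrays, shares that stand beside each list here. Of 68 probes for ripe fruit markers, 31 were tested, of which 15 were higher and 4 lower in Lycb-1 on all 3 arrays. Their summed intensity was 638258 to 795308 in Lycb-1 and 257972 to 300795 in WT. Of 30 probes for pathogen response, 15 were tested. Of these, 2 were higher and 7 lower in each of the 3 arrays, their median log2 ratio was -1.05, and they had summed intensities of 60001 to 103508 in Lycb-1 and 136490 to 192610 in WT. Of 24 probes for epidermis and cuticle, 10 were tested, 0 of them higher and 3 lower in each array, with sums of 26837 to 52059 in Lycb-1 and 49263 to 106350 in WT. Of 26 probes for green tissue, 11 were tested, 3 of them higher and 6 lower in each array, with a median of -0.66 and sums of 30321 to 56173 in Lycb-1 and 28310 to 46361 in WT. Of 10 seed probes, 4 were tested, a steroleosin and late embryogenesis proteins, with 2 higher and 0 lower in each array. The 10 summed to 7813 to 31471 in Lycb-1 and 4657 to 9521 in WT, and 1 of them was not above the empty spots. The fruits were deseeded, and whether these values come from seed tissue was not tested. The part of these cell type and defence levels in the results below was not tested. In pooled fruit, fewer cells of a type and less RNA per cell cannot be told apart.

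No wound or jasmonate gene passed the test between the genotypes. At an adjusted p under 0.05, limma called 0 of the 44 tested members, beside 0.0524% of all tested probes, and the lowest adjusted p of a member was 0.208. At an unadjusted p under 0.05, 6 members were higher in Lycb-1 (13.6% of them, beside 6.96% of all probes) and 6 were lower (13.6% beside 8.69%). The members had a median log2 ratio of 0.05 and all tested probes one of -0.01. The members' median was -0.01 with 1 loess curve for the whole array in place of 1 for each block.

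The ratios of these genes differed widely between arrays. The standard deviation (SD) of the log2 ratio over the 3 arrays had a median of 0.637 among the members and 0.361 among all tested probes. It was above 1 for 12 of the 44 members (27.3%) and for 8.57% of all probes. The 3 tested probes with the largest SD on the whole array were members, namely the wound-responsive AP2 like factor 1 (SGN-U216297, SD 5.27), a proteinase inhibitor I (SGN-U213613, SD 4.35) and the wound-induced proteinase inhibitor II (AY129402, SD 4.04). These are descriptions of 3 pool pairs, with no test of spread, and for the first and the second of these probes 1 channel on array 3 was not above the empty spots, so the size of their SD is uncertain. Only 13 of the 44 members had 1 direction on all 3 arrays. Of these, 5 were higher in Lycb-1 (11.4% of the members, beside 20.2% of all probes) and 8 were lower (18.2% beside 21.3%). With arrays only centred on their median these counts were 10 and 5, while the median of all tested probes moved to 0.147 and the counts over all probes to 1828 higher and 726 lower.

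**Figure D1:**
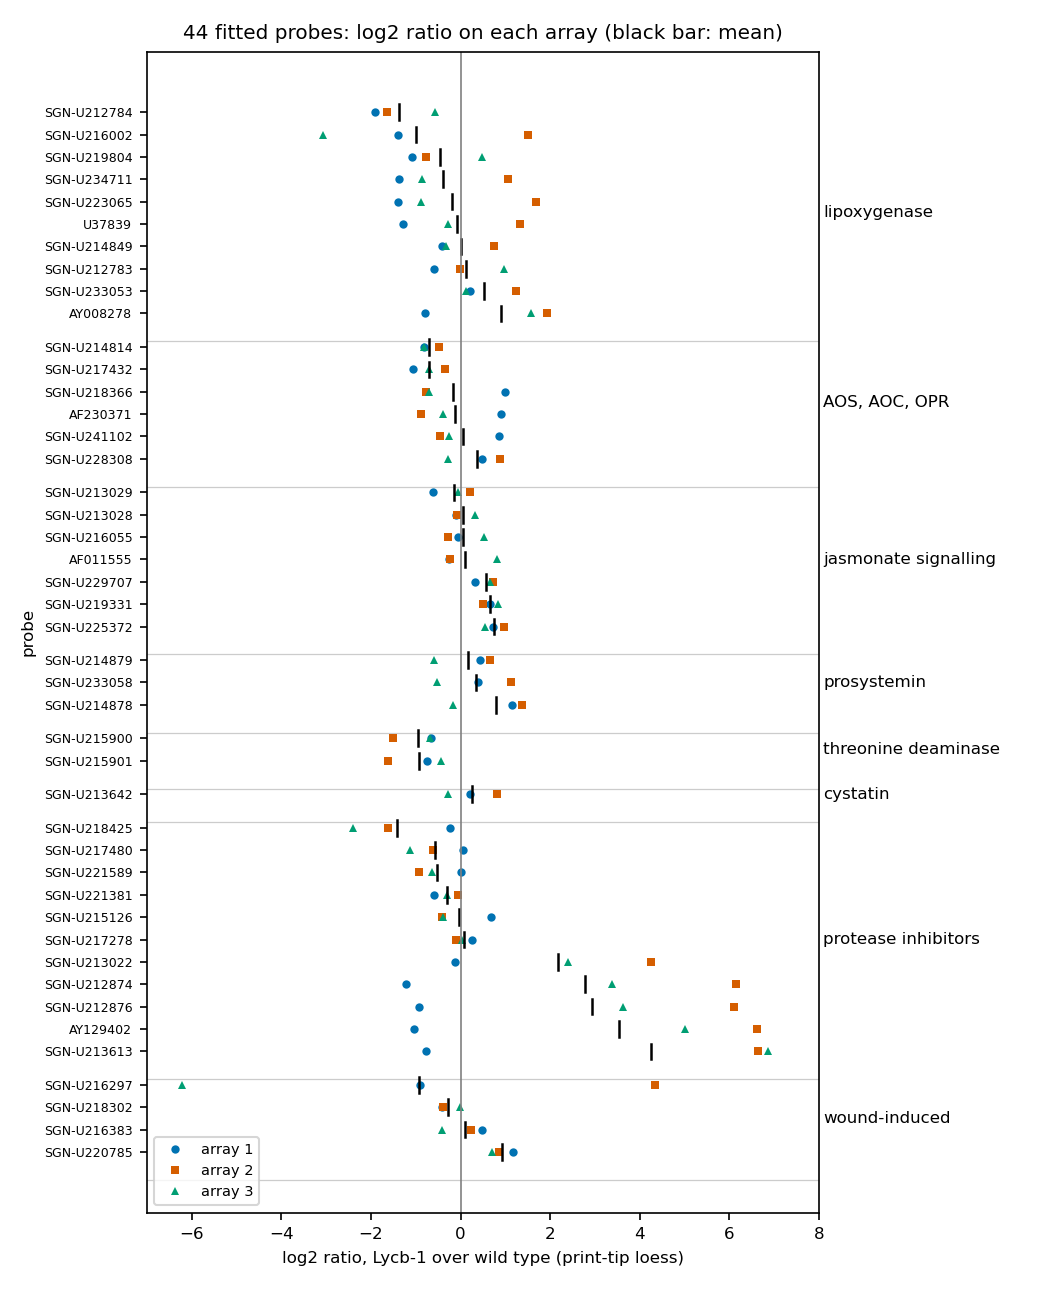
Log2 ratio of Lycb-1 over WT (x axis, print-tip loess) of the 44 tested members (rows, grouped by role), with 1 symbol for each array and a black bar for the mean. Most rows spread over both sides of 0, with 5 of the inhibitors above 2 on arrays 2 and 3 and below 0 on array 1, and the AP2 like factor 1 (SGN-U216297) running from -6.21 to 4.33.

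The plot of log2 ratios by role shows 3 kinds of member: inhibitors with very high ratios on 2 arrays only, lipoxygenases that change side between arrays, and a few probes of modest size whose 3 symbols lie together. The genes are described in that order of the pathway, from the signal to its targets. Probes beyond those that the naming rule gives were named after their values had been seen.

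Prosystemin, the precursor of the wound peptide, was on the array as 4 probes with the same database entry. SGN-U214878 read 3176, 4419 and 2506 in the Lycb-1 pools 1, 2 and 3 and 1311, 1873 and 2571 in the WT pools. Lycb-1 was thus brighter on arrays 1 and 2 and the dimmest Lycb-1 pool lay within the WT range. Its log2 ratios were 1.15, 1.37 and -0.18, with a mean of 0.78 (SE 0.35, limma adjusted p = 0.364). The other 2 tested probes had the same order over the arrays, with 0.39, 1.13 and -0.53 for SGN-U233058 (mean 0.33, SE 0.35, adjusted p = 0.672) and 0.43, 0.67 and -0.59 for SGN-U214879 (mean 0.17, SE 0.30, adjusted p = 0.815). All 3 means thus lay above 0, array 3 was below 0 for each, and none passed the test. The fourth, SGN-U214877, was too dim for the test but read 326, 581 and 320 in Lycb-1 and 180, 166 and 353 in WT, again with WT above only in pool 3. The 4 probes with SR160 in their description, a receptor once described as that of systemin, did not exceed 37 in any pool. Only SGN-U226747 is described as the brassinosteroid receptor kinase tBRI1, and the others as putative proteins of Ricinus communis.

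Lipoxygenases add oxygen to fatty acids and open the route to jasmonate, while other members of the family make fruit flavour volatiles or seed and fruit oxylipins. Of 18 probes 10 were tested, of which 1 was higher and 1 lower in Lycb-1 on all 3 arrays and 8 changed side, with a median log2 ratio of -0.14 that became 0.02 when arrays were only centred on their median. Lipoxygenase A (SGN-U212784), a fruit lipoxygenase, read 2491, 4253 and 6695 in Lycb-1 and 7982, 13321 and 7684 in WT. Every Lycb-1 pool was below every WT pool. Its log2 ratios of -1.92, -1.64 and -0.56 had a mean of -1.37 (SE 0.31), which is 2.59-fold more in WT, with an adjusted p of 0.227 in limma. It was the only member past a score rule of the SAM type, and its score was -2.21. That score divides the mean by a constant plus the ordinary standard error (the SD over the square root of n, not the SE moderated by limma), and the rule asks for a size of at least 2 and a 2-fold mean. The same rule called 1.91% of all tested probes as lower and 1.22% as higher.

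Most of the other lipoxygenases reversed between arrays 1 and 2. SGN-U216002 read 507, 834 and 125 in Lycb-1 and 1273, 301 and 1146 in WT. WT was brighter in pools 1 and 3 and Lycb-1 in pool 2. Its log2 ratios were -1.40, 1.50 and -3.07, and its mean of -0.99 (SE 0.86, limma adjusted p = 0.608) became 0.05 without array 3. The same turn was seen in 3 probes with 1 shared database entry, SGN-U223065 (-1.39, 1.67 and -0.88), U37839 (-1.29, 1.32 and -0.27) and SGN-U214849 (-0.41, 0.75 and -0.32), whose means ran from -0.20 to 0.01. In SGN-U223065 the Lycb-1 pools were nearly level at 1310, 1335 and 1144, and the WT pools at 3497, 427 and 2091 carried the turn. SGN-U234711 behaved likewise, with 3937, 2377 and 5618 in Lycb-1 and 8595, 986 and 8783 in WT. For these 5 probes WT pool 2 was the lowest of the 3 WT pools.

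A ratio below 0 on array 1 and above 0 on array 2 was found in 6 of the 10 tested lipoxygenases, in 5 of the 11 tested serine and other inhibitors and in 13 of all 44 tested members (29.5%, beside 19.4% of all probes). This pattern was chosen after the values had been seen. The sixth lipoxygenase was AY008278, which also stayed high on array 3. It read 6750, 10210 and 11851 in Lycb-1 and 9314, 2701 and 3462 in WT, with a mean log2 ratio of 0.90 (SE 0.57, adjusted p = 0.476). SGN-U212783, with the same database entry, was near 0 on array 2, with ratios of -0.58, -0.01 and 0.96 and a mean of 0.12 (SE 0.33). One probe, SGN-U233053, described as a 13-lipoxygenase of potato, the type that leads to jasmonate, had a ratio above 0 on each array. The descriptions of the other tested lipoxygenases do not give this type, so they may hold more of it. SGN-U233053 thus does not stand for the type as a whole. SGN-U214849, assigned to the same Arabidopsis locus as SGN-U233053, changed side between arrays as given above. SGN-U216002, SGN-U223065 and SGN-U234711, assigned together to another Arabidopsis locus, changed side too. The intensities of SGN-U233053 were 11156, 10738 and 9534 in Lycb-1 and 7680, 3650 and 6977 in WT. All Lycb-1 pools were above all WT pools, but the ratios of 0.21, 1.25 and 0.12 gave a mean of only 0.53 (SE 0.29, adjusted p = 0.426).

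The steps after lipoxygenase split by enzyme. Allene oxide synthase, the first committed step, had 3 tested probes with means near 0, and allene oxide cyclase and the oxophytodienoate reductase OPR3 were lower in Lycb-1 on every array. For allene oxide synthase, SGN-U218366 read 4021, 2864 and 1459 in Lycb-1 and 1987, 5115 and 2355 in WT, so Lycb-1 was above in pool 1 and below in pools 2 and 3. Its mean log2 ratio was -0.16, with a 95% interval from -1.19 to 0.86, a range that includes a 2-fold lower level in Lycb-1. AF230371, with the same database entry, and SGN-U241102 shared this order of arrays and had means of -0.13 and 0.05. It is the reverse of the order in the lipoxygenases, with array 1 above 0 and array 2 below.

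Allene oxide cyclase (SGN-U217432), which fixes the stereochemistry of the jasmonate precursor, read 1173, 2069 and 2071 in Lycb-1 and 2229, 2772 and 2973 in WT. All Lycb-1 pools were below all WT pools. Its log2 ratios of -1.05, -0.35 and -0.71 had a mean of -0.70 (SE 0.22), 1.63-fold more in WT, with a limma p of 0.0231 that became 0.273 after adjustment. OPR3 (SGN-U214814), the reductase that makes the direct precursor of jasmonic acid, read 361, 509 and 754 in Lycb-1 and 728, 914 and 1368 in WT. WT was brighter within each array, although the brightest Lycb-1 pool reached the dimmest WT pool. Its ratios of -0.81, -0.49 and -0.81 lay close together, with a mean of -0.71 (SE 0.19, adjusted p = 0.241). The related reductase OPR1 (SGN-U228308), which in tomato is not known to take part in jasmonate synthesis, had a mean of 0.36 (SE 0.28, adjusted p = 0.572), and a second OPR1 probe (AJ242551) was too dim to test at 143, 131 and 342 in Lycb-1 and 180, 234 and 539 in WT.

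Among the other jasmonate genes, 3 of 7 tested probes were higher in Lycb-1 on all 3 arrays and 0 were lower, beside 20.2% and 21.3% of all probes. The group held JAZ repressors, jasmonic acid 2 and the conjugating enzyme. SGN-U225372, described as JAZ2 of tobacco, read 623, 561 and 712 in Lycb-1 and 374, 203 and 509 in WT. Every Lycb-1 pool was above every WT pool. Its ratios were 0.72, 0.98 and 0.54, with a mean of 0.74 (SE 0.19, limma adjusted p = 0.236). SGN-U219331, described as jasmonic acid 2 of potato, a transcription factor of the NAC family, read 497, 648 and 896 in Lycb-1 and 341, 370 and 419 in WT. Here too the groups did not overlap, and the mean was 0.66 (SE 0.19, adjusted p = 0.255). The enzyme that joins jasmonic acid to amino acids (SGN-U229707) read 3935, 5194 and 6391 in Lycb-1 and 3012, 2983 and 3482 in WT. The Lycb-1 pools again lay above, with ratios of 0.33, 0.72 and 0.65 and a mean of 0.57 (SE 0.19, adjusted p = 0.286). A second probe with the same database entry, SGN-U222167, too dim to test, read 92, 55 and 94 in Lycb-1 and 92, 152 and 195 in WT, level in pool 1 and lower in Lycb-1 in pools 2 and 3.

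The tested probes of the same families that were described by tomato entries had means near 0. The probes of jasmonate ZIM-domain protein 3, SGN-U213028 and SGN-U213029, had means of 0.05 and -0.16 (SE 0.20 and 0.23). Those of tomato jasmonic acid 2, SGN-U216055 and AF011555, had means of 0.06 and 0.10 (SE 0.23 and 0.28), with a positive ratio on array 3 only. JAZ1 (SGN-U213942), an early target of the pathway and too dim on array 3 for the test, read 631, 535 and 33 in Lycb-1 and 537, 109 and 236 in WT. It was far above WT in pool 2 and far below in pool 3. SGN-U226308, described as JAZ3 of Arabidopsis and also too dim to test, read 182, 276 and 209 in Lycb-1. In WT it read 113, 120 and 180, below Lycb-1 in every pool.

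A further 38 probes were taken by words in their descriptions, among them COI1, the jasmonate receptor, and MYC2, its main transcription factor. Phospholipases, arginase and leucine aminopeptidase were others, and 11 of the 38 were tested. The words also took the phospholipase A-2-activating proteins SGN-U220898, SGN-U224524 and SGN-U234423. The tested leucine aminopeptidase (SGN-U212652) is described as the neutral form. Values of the 11 thus describe this list and are not a result for the pathway. At an unadjusted p under 0.05 limma gave 0 of these 11, beside 6.96% of all probes higher and 8.69% lower. Of the 11, 2 were higher and 3 lower in Lycb-1 on all 3 arrays, beside 20.2% and 21.3% of all probes. The median of the 11 was -0.03. Both probes of COI1, SGN-U226300 and AY423549, were below 0 on every array, with means of -0.30 and -0.29 (SE 0.18 and 0.20). A probe described as Myc2 of grapevine (SGN-U218685) had 0.25 (SE 0.22), and arginase 2 (SGN-U214916), a wound-induced defence enzyme of tomato, had -0.60 (SE 0.26, adjusted p = 0.353).

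The proteinase inhibitors I and II were the members with the widest range. The array held 18 probes for them, 10 for type I and 8 for type II, counting by their descriptions. In 14 of the 18, Lycb-1 pool 2 was the brightest of the 6 samples, and the same 14 exceeded WT pool 2 by more than 10-fold, with the WT value set no lower than the 99th percentile of the empty spots. This limit was chosen after the values had been seen. No share over all probes stands beside these counts or those that follow, so they describe these probes only. In pool 3, Lycb-1 was above WT in 13 of the 14. In pool 1, it was below WT in 9 of the 14, which were 5 of 5 for type II and 4 of 9 for type I.

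**Figure D2:**
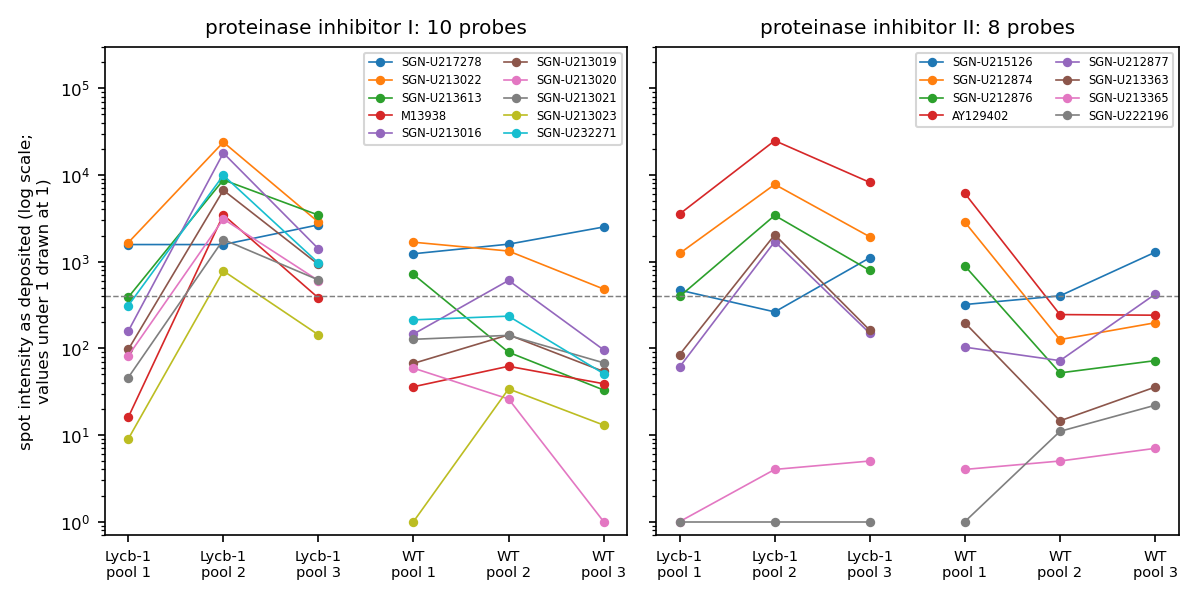
Deposited spot intensity (y axis, log scale, values under 1 drawn at 1) of the 18 probes for proteinase inhibitors I (left) and II (right) in each of the 6 pools, with a line for each probe within a genotype and a dashed line at 400. In Lycb-1 the lines peak in pool 2 for 14 probes, and in WT several type II lines are highest in pool 1.

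The plot of inhibitor intensities by pool shows the peak in Lycb-1 pool 2 and the wide spread within each genotype. AY129402, the wound-induced inhibitor II of tomato, read 3551, 24908 and 8218 in Lycb-1 and 6123, 245 and 241 in WT. Lycb-1 pools 2 and 3 were the brightest, but WT pool 1 was brighter than Lycb-1 pool 1, and the groups overlapped. The WT pools alone differed by 25.4-fold. Its log2 ratios were -1.04, 6.61 and 5.01, and the mean of 3.53 had an SE of 1.47 (limma adjusted p = 0.340).

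Other inhibitor II probes had the same shape. SGN-U212874, with the same entry as AY129402, read 1247, 7785 and 1934 in Lycb-1 and 2854, 126 and 197 in WT, a 22.7-fold range among the WT pools, and had a mean ratio of 2.77 (SE 1.36, adjusted p = 0.391). SGN-U212876, for inhibitor II CEVI57, an inhibitor named for its induction by a viroid, read 397, 3417 and 791 in Lycb-1 and 891, 52 and 72 in WT, with a mean of 2.93 (SE 1.31, adjusted p = 0.363). In both, WT pool 1 stood between the Lycb-1 pools. A second CEVI57 probe, SGN-U212877, too dim to test, read 61, 1703 and 149 in Lycb-1 and 103, 72 and 420 in WT, and was the 1 probe of the 14 with WT above Lycb-1 in pool 3.

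For inhibitor I, SGN-U213613, described as the inhibitor I precursor of potato, read 388, 8775 and 3444 in Lycb-1 and 711, 90 and 33 in WT. WT pool 3 was at the level of empty spots there (a 99th percentile of 33.66), so its ratio on array 3 is uncertain. Its log2 ratios were -0.78, 6.64 and 6.86, with a mean of 4.24 (SE 1.59), a p of 0.0433 and an adjusted p of 0.305, all of which carry that uncertainty. SGN-U213022, described as PPI3A4 of potato, read 1658, 23909 and 2858 in Lycb-1 and 1676, 1326 and 483 in WT. Pool 1 was level between the genotypes, and pools 2 and 3 were higher in Lycb-1, with ratios of -0.13, 4.26 and 2.39 and a mean of 2.17 (SE 0.82, adjusted p = 0.308).

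A further 7 inhibitor I probes were bright in Lycb-1 pool 2 but not bright enough on all 3 arrays for the test. M13938, the wound-induced inhibitor I of tomato, read 16, 3465 and 381 in Lycb-1 and 36, 62 and 39 in WT. SGN-U213016, with the same description, read 158, 17938 and 1407 in Lycb-1 and 146, 607 and 96 in WT. The other 5 (SGN-U213019, SGN-U213020, SGN-U213021, SGN-U213023 and SGN-U232271) ran from 9 to 311 in Lycb-1 pool 1, from 782 to 9920 in pool 2 and from 143 to 964 in pool 3, and did not exceed 235 in any WT pool. A probe is tested only when bright on all 3 arrays, so these 7 are among the 14 above but not among the 44 tested members. With no filter on dim spots, the 79 members then tested held 12 at an unadjusted p under 0.05 and higher in Lycb-1, beside 589 of all 10259 probes then tested, and still 0 at an adjusted p under 0.05.

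The inhibitor II TR8 (SGN-U213363) showed how far the spots of 1 array agree. This probe was printed 11 times in 10 blocks of each array. The median intensity over its spots in Lycb-1 was 87 in pool 1 (48 to 102), 2088 in pool 2 (934 to 2529) and 153 in pool 3 (106 to 216). In WT it was 210 (92 to 252), 20 (1 to 31) and 36 (0 to 70). The spots of each Lycb-1 pool thus lay together, and the spots of Lycb-1 pool 2 lay far above all others. In WT pools 2 and 3 the spots reached down to 1 and 0.

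**Figure D3:**
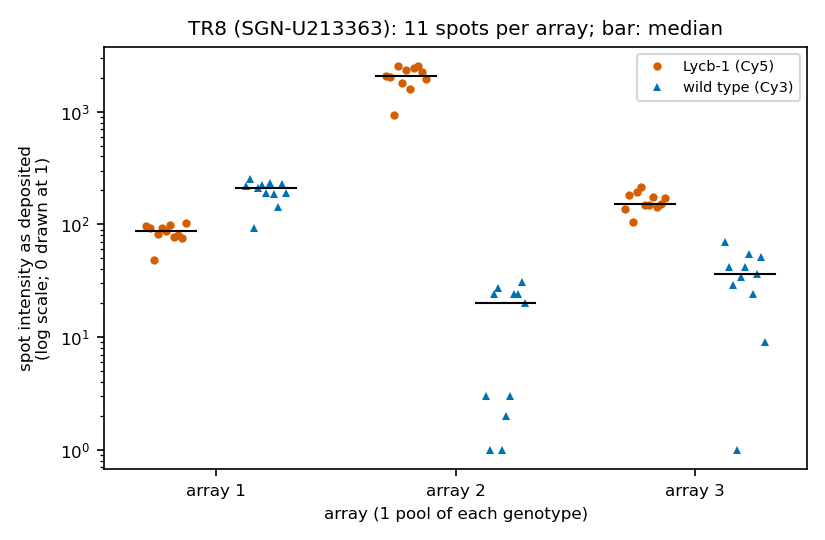
Deposited intensity (y axis, log scale, 0 drawn at 1) of the 11 spots of TR8 on each array (x axis), circles for Lycb-1 in Cy5 and triangles for WT in Cy3, with bars at the medians. WT lies above Lycb-1 on array 1, with medians of 210 and 87, and below it on arrays 2 and 3.

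As the plot of TR8 spots shows, the genotypes changed order between arrays with all spots together. The ratio was below 0 in 11 of 11 spots on array 1 (median -0.73, SD over spots 0.35). It was above 0 in 11 of 11 on array 2, with a wide spread (median 6.94, SD 2.02). On array 3 it was above 0 in 10 of 10 spots with a measured ratio (median 2.58, SD 0.89). On array 2 the WT median of 20 was under the 99th percentile of the empty spots, 27, so the size of that ratio is not well measured. Spots of 1 array share their RNA and are not replicates of the genotype, and TR8 was not bright enough on arrays 1 and 3 for the fit.

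The inhibitors of both families that did not follow this pattern were 4. The ethylene-responsive inhibitor I (SGN-U217278), named for its response to the ripening hormone, was level between genotypes, at 1575, 1574 and 2658 in Lycb-1 and 1233, 1591 and 2511 in WT. Its mean log2 ratio was 0.06, with a 95% interval from -0.42 to 0.55. A trypsin inhibitor of the type II family (SGN-U215126) had a mean of -0.04 (SE 0.29), and SGN-U213365 and SGN-U222196 did not exceed 22 in any pool.

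Among the inhibitors of other families that were bright enough to test, those of the lipid transfer and Kazal types had means below 0. SGN-U218425, of the family that joins protease inhibitors, seed storage proteins and lipid transfer proteins, and a member by that name alone, read 1906, 1525 and 601 in Lycb-1 and 1839, 3875 and 2737 in WT. It was level in pool 1 and lower in Lycb-1 in pools 2 and 3, with ratios of -0.25, -1.63 and -2.40. The mean of -1.42 (SE 0.43), 2.68-fold more in WT, had an adjusted p of 0.264, and this probe and lipoxygenase A were the 2 members at least 2-fold lower and below 0 on all 3 arrays (4.55% of the tested members, beside 3.11% of all probes). In the other direction there were 0 members, beside 2.06% of all probes. The second probe of that family (SGN-U221589) had a mean of -0.52 (SE 0.25), and the serine inhibitors of the Kazal type, SGN-U217480 and SGN-U221381, had means of -0.57 and -0.31 (SE 0.28 and 0.20). Lipid transfer proteins also made up most of the tested epidermis and cuticle markers. These 10 probes had a median log2 ratio of -1.15. On all 3 arrays 0 of them were higher and 3 lower, beside 20.2% and 21.3% of all probes. Among the 10, a wax synthase and a glycolipid transfer protein had means of 0.10 and 0.13. A link between these markers and SGN-U218425 was not tested.

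Cystatins block cysteine proteases, and only 1 of 5 probes was tested. It was SGN-U213642, tomato cystatin, at 11313, 13179 and 7407 in Lycb-1 and 7629, 7268 and 7252 in WT. Lycb-1 was brighter in every pool as deposited, but after scaling the ratio was 0.21, 0.81 and -0.28, with a mean of 0.25 (SE 0.27, limma adjusted p = 0.680) that became -0.04 without array 2. The multicystatins, proteins of several joined cystatin units, did not exceed 99 in any pool. A Kunitz inhibitor (SGN-U214620) was at most 15 in 5 samples and read 690 in WT pool 3, and an aspartic protease inhibitor (SGN-U212879) read 200 in Lycb-1 pool 2 and at most 58 elsewhere.

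**Figure D4:**
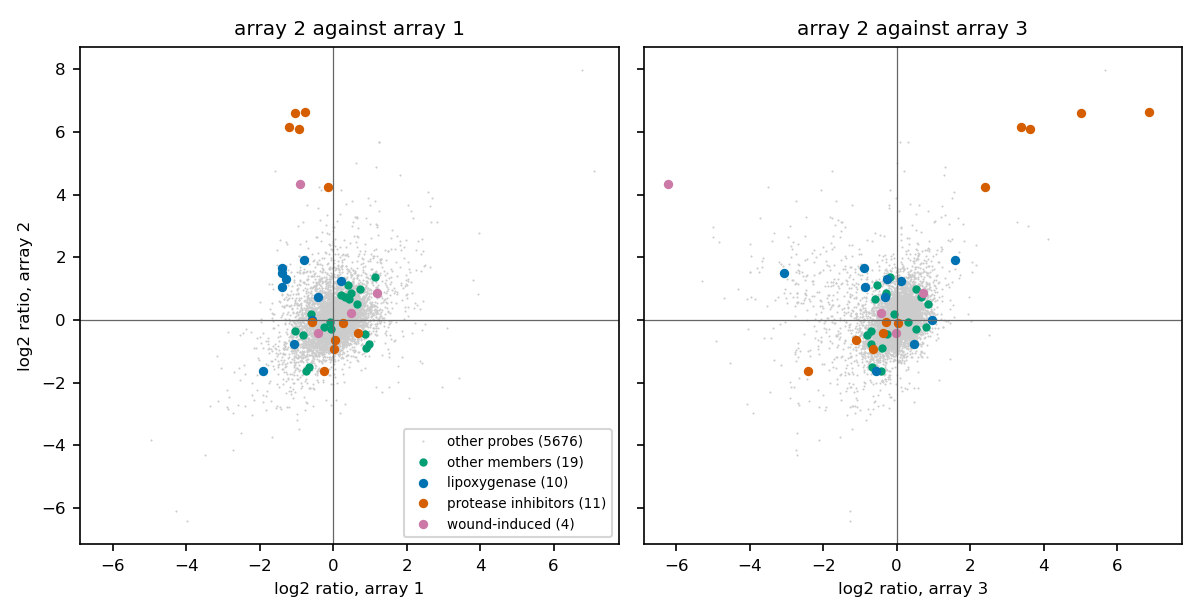
Log2 ratio of Lycb-1 over WT on array 2 (y axes) against array 1 (left) and array 3 (right), 1 point for each of the 5720 tested probes, with lipoxygenases, protease inhibitors and wound-induced members coloured. In the left panel 5 inhibitors lie above 4 on array 2 and below 0 on array 1, and in the right panel the same 5 lie high on both arrays.

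The plot of array 2 against the other arrays places the members beside all probes. Over the 44 members, Pearson's r was -0.26 between arrays 1 and 2, -0.05 between arrays 1 and 3 and 0.57 between arrays 2 and 3. Over all 5720 probes it was 0.38, 0.30 and 0.16. These are descriptions across probes, which share their RNA and in part their sequence, and 5 inhibitors carry much of the last value by eye. The median log2 ratio of the members was -0.25, 0.37 and -0.28 on the 3 arrays, and that of the lipoxygenases was -1.18, 1.15 and -0.30.

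Threonine deaminase makes the first step towards isoleucine, the amino acid that jasmonic acid is joined to, and a wound-induced form of it acts in the gut of caterpillars. The 2 probes tested, both described as chloroplast threonine deaminase 1 of tomato, had ratios below 0 on each array. SGN-U215900 read 295, 198 and 509 in Lycb-1 and 591, 581 and 774 in WT. All Lycb-1 pools were below all WT pools, with ratios of -0.67, -1.51 and -0.68 and a mean of -0.95 (SE 0.25, limma adjusted p = 0.236), 1.94-fold more in WT. SGN-U215901 read 434, 438 and 1085 in Lycb-1 and 723, 1128 and 1542 in WT. WT was brighter within each array, the ranges overlapped, and the mean was -0.93 (SE 0.28, adjusted p = 0.264). These are 2 probes of 1 database entry and not independent genes. The other 4, described as the biosynthetic threonine dehydratase, did not exceed 135 in any pool. The array descriptions do not say which entry is the wound-induced form, so the ratios of the tested probes are not a result for it.

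Polyphenol oxidases, which brown wounded tissue, were near background. None of their 7 probes exceeded 48 in any pool, and 3 of them were under the 99th percentile of the empty spots in both channels of all arrays (10 to 15 in Cy5 and 27 to 34 in Cy3). This is a limit of the array, and low levels of these genes were not detectable.

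Of 11 probes with wound in their names that fell in no group above, 4 were tested. The wound-induced basic protein (SGN-U220785), named from a similar protein of grapevine, had the lowest adjusted p of all members. It read 19489, 18093 and 12462 in Lycb-1 and 5999, 8198 and 6638 in WT. Every Lycb-1 pool was above every WT pool, and its ratios were 1.18, 0.85 and 0.71. The mean of 0.91 (SE 0.20) is 1.88-fold more in Lycb-1, with a p of 0.0055 and an adjusted p of 0.208.

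The AP2 like factor 1 (SGN-U216297), a wound-responsive transcription factor described from tobacco, was its opposite. It read 1656, 2049 and 15 in Lycb-1 and 3040, 100 and 1339 in WT. WT was higher in pools 1 and 3 and Lycb-1 in pool 2, and the WT pools alone differed by 30.4-fold. Lycb-1 pool 3 was at the 99th percentile of the empty spots in Cy5, 15, so the ratio on array 3 is uncertain in size. Its ratios of -0.91, 4.33 and -6.21 had a mean of -0.93 (SE 1.92, adjusted p = 0.841), which became 1.71 without array 3 and -3.56 without array 2. A related factor, the AP2 like factor 2 (SGN-U224670), too dim to test, read 768, 317 and 31 in Lycb-1 and 306, 88 and 144 in WT, above WT in pools 1 and 2 and below it in pool 3.

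Both AP2 like factors, JAZ1 and the lipoxygenase SGN-U216002 were lowest in Lycb-1 pool 3 among the Lycb-1 pools, whereas all 14 inhibitors high in pool 2 were lowest in pool 1. The remaining tested members, Wound-induced protein 1 (SGN-U216383) and a wound-responsive protein (SGN-U218302), had means of 0.10 and -0.28 (SE 0.25 and 0.20). Among the probes too dim to test, the tomato wound-induced protein SGN-U214651 read 37, 22 and 138 in Lycb-1 and 93, 958 and 646 in WT, lower in Lycb-1 in every pool. In all, 60 of the 104 members were not tested. For 44 of these the brighter channel was under 400 on every array, for 8 it reached 400 on 1 array and for 8 on 2, and 31 of the 60 were still above the empty spots in at least 1 channel on all 3 arrays.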

How the data were processed

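The arrays held 13728 spots in 48 blocks of 286, with 1568 empty. The authors deposited the intensity of each spot, read with ImaGene and net of background, and a ratio of Lycb-1 over WT after print-tip lowess in the marray package. The deposited series table holds log2 of that ratio. Intensities at or below 0 were left out, and 13 control names and empty spots were given no weight. Ratios were scaled within blocks by loess, using limma 3.58.1 under R 4.3.3. Spots with at least 400 in the brighter channel and a good mark on each of the 3 arrays entered the fit (5846 spots), after averaging over the spots of a probe. A mean was fitted with lmFit and eBayes (prior df 3.08). The channels of an array are paired by the ratio. The authors' own files of differentially expressed spots were not used. For the score rule, the mean log2 ratio was divided by 0.209 plus its ordinary standard error (not moderated by limma), with a limit of 2.

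The arrays give no counts. The checked spots with at least 400 in the brighter channel numbered 6306, 6289 and 6855, and median intensities of fitted spots were 1841 to 2152 in Cy5 and 1753 to 2119 in Cy3. Members and lists were chosen with earlier results of these data known. Named were TR8, members at least 2-fold changed in 1 direction on all 3 arrays, the 2 largest mean ratios of each of 9 role groups, and every member of groups with 3 or fewer tested. Roles follow the first matching word of the description. Gene names are those of the array files. The probe names matched 0 locus tags of the reference table, and no sequence was used here. On simulated data for this comparison (5720 probes), log2 changes of 1, 2 and 3 were called in 4.62%, 61.1% and 79.4% of changed probes, with 4 false calls. The members had a larger median SD over arrays than all probes (0.637 beside 0.361), so these rates cannot be read as rates for the members. Alternatives covered the scaling, the authors' ratio, the filter on dim spots, the averaging of spots, the variance trend, the pairing of channels and each array left out. Plots were made in matplotlib 3.10.9 with Python 3.11.15.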

Additional observations from a re-analysis of the deposited data

How the results depend on the processing

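Under every alternative run, limma called 0 members at an adjusted p under 0.05. Of the 17 named and tested members, none changed direction with 1 loess curve per array, median centring or the authors' ratio. Over the fits without 1 array, the mean of cystatin SGN-U213642 ran from -0.037 (without array 2) to 0.51, that of prosystemin SGN-U214879 from -0.081 (without array 2) to 0.55 and that of prosystemin SGN-U233058 from -0.065 (without array 2) to 0.76. The mean of lipoxygenase SGN-U216002 ran from -2.24 to 0.051 (without array 3) and that of the AP2 like factor SGN-U216297 from -3.56 to 1.71 (without array 3). Median centring, which moves the median of all probes to 0.147, gave 10 members higher and 5 lower in Lycb-1 on all 3 arrays. With no filter on dim spots, 79 members were tested, of which 12 were higher at an unadjusted p under 0.05 (589 of all 10259 probes) and 18 were higher on all 3 arrays (2010 of 10259). The median of the serine and other inhibitors, 0.06 over the tested members, was then 1.24, and -0.31 with at least 400 in both channels. That last setting left 31 members, of which 3 were higher at that p (370 of all 4936 probes) and 3 on all 3 arrays (1016 of 4936). Leaving out 1 array gave 2 to 9 members higher at an unadjusted p under 0.05 (9 without array 1, 2 without array 2 and 3 without array 3), 4 to 8 lower, 6 to 11 higher on all arrays left and 13 to 15 lower. Of all 5720 probes, 216 were higher and 320 lower at that p without array 1, and 224 and 424 without array 2. On all arrays left, 1696 of them were higher and 1830 lower without array 1, and 1636 and 1791 without array 2. Counts over all probes without array 3 are not given here, so no share stands beside the members' counts of that fit. With the score rule in place of the adjusted p, 1 member was called. The channels taken as separate samples, with no replicate block, gave 6 higher and 6 lower members at that p and 0 after adjustment. Of all 5720 probes, that setting gave 237 higher and 326 lower, beside 398 and 497 in the main fit. The cause of these differences was not tested beyond the number of probes and arrays that each setting leaves. A mean of 3 pool pairs, without exchanged dyes and from 1 line, limits every value above, and ratios with a channel near the empty spots are uncertain in size.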
